A study of Mus musculus with 10 samples.

Results

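The 10 genes described here encode C-type lectin receptors of myeloid cells, which are the macrophages, monocytes, neutrophils and dendritic cells. They are Clec4a1, Clec4a2, Clec4a3, Clec4d, Clec4e, Clec4n, Clec5a, Clec7a, Clec10a and Clec12a. The members were taken from the deposited count table by gene name, and all 10 were found among its 40690 genes, 1 row each. The list was selected on the sham and naive counts of these same libraries, whose results were known when it was drawn up, so their differences between the groups are given as a description, without p-values. Polyadenylated RNA was sequenced from the heart ventricles of male C57BL/6 mice aged 10 weeks, in 10 libraries. The sham group had undergone the control surgery for ischemia-reperfusion, and the naive group had no operation; each had 5 libraries. The labels name no transgene, drug or pooling. The comparison asks which ventricular transcripts differ after the control surgery itself, and the sources used here do not give the time between surgery and tissue collection. The libraries are labelled as separate samples, and nothing is said of separate litters or batches; p-values cover only the spread among these libraries.

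C-type lectin receptors carry an extracellular domain related to those that bind sugars, and several recognise fungal or mycobacterial glycans or products of damaged cells. Activating members signal through an immunoreceptor tyrosine-based activation motif (ITAM), which lies in a partner protein such as the Fc receptor gamma chain (Fcer1g) or DAP12 (Tyrobp), or as a shortened form in the receptor's own tail. The kinase Syk and the adaptor CARD9 then carry the signal to NF-kB and cytokine genes. Inhibitory members hold an inhibitory motif (ITIM) instead, which recruits phosphatases such as SHP-1, the product of Ptpn6.

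The members were rare transcripts in the ventricle and stood higher in sham libraries. Levels are given in CPM (counts scaled to a common library total) after scaling with TMM factors, which correct for differences in RNA composition. Library totals ran from 10654107 to 21537135 counts in sham and from 9683181 to 17577906 in naive, and 3 counts, taken as the floor of a library, were worth 0.122 to 0.260 CPM in sham and 0.185 to 0.357 CPM in naive libraries. The 10 members together held 1595 counts over the sham and 311 counts over the naive libraries. Their summed level was 10.9, 17.2, 16, 21 and 20.9 CPM in sham libraries 1 to 5, and 4.05, 3.63, 4.42, 6.19 and 5.24 CPM in naive libraries 1 to 5. Every sham library lay above every naive library in this sum, and sham 1 was the lowest of its group. In sham 1 also 8 of the 10 members had their lowest sham value, and on the first principal component of all tested genes it stood at -24.6, nearer to the naive libraries (30.5 to 40.3) than the other sham libraries (-40.9 to -36.6). In bulk tissue, more cells of a type and more RNA per cell cannot be told apart.

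Only 5 members passed the filter on low counts that the gene test needs: Clec4a1, Clec4d, Clec4n, Clec10a and Clec12a. All 5 were past the threshold as higher in sham (adjusted p under 0.05 by Benjamini-Hochberg over 13622 genes, from the quasi-likelihood test of edgeR), where 17.2% of all tested genes were higher and 15.5% lower. A rare gene that passes such a filter mainly through its sham libraries had to differ, so nothing is read from this count. The other 5, Clec4a2, Clec4a3, Clec4e, Clec5a and Clec7a, were too low to be tested. For these and for comparison across members, a ratio of summed counts per effective library size is given with an exact 95% interval, which covers counting error only and not the spread between libraries. Without the filter, 8.64% of 30305 genes were higher. In 4 of the 5 tested members the lowest sham value exceeded the highest naive value, as in 13.6% of all tested genes. In 9.18% of tested genes the reverse held. The untested Clec4a2 and Clec4a3 also had every sham value above every naive value, but the share among untested genes was not computed. Nothing is read from these counts either. In Clec4e, Clec5a, Clec7a and Clec12a the groups overlapped.

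**Figure D1:**
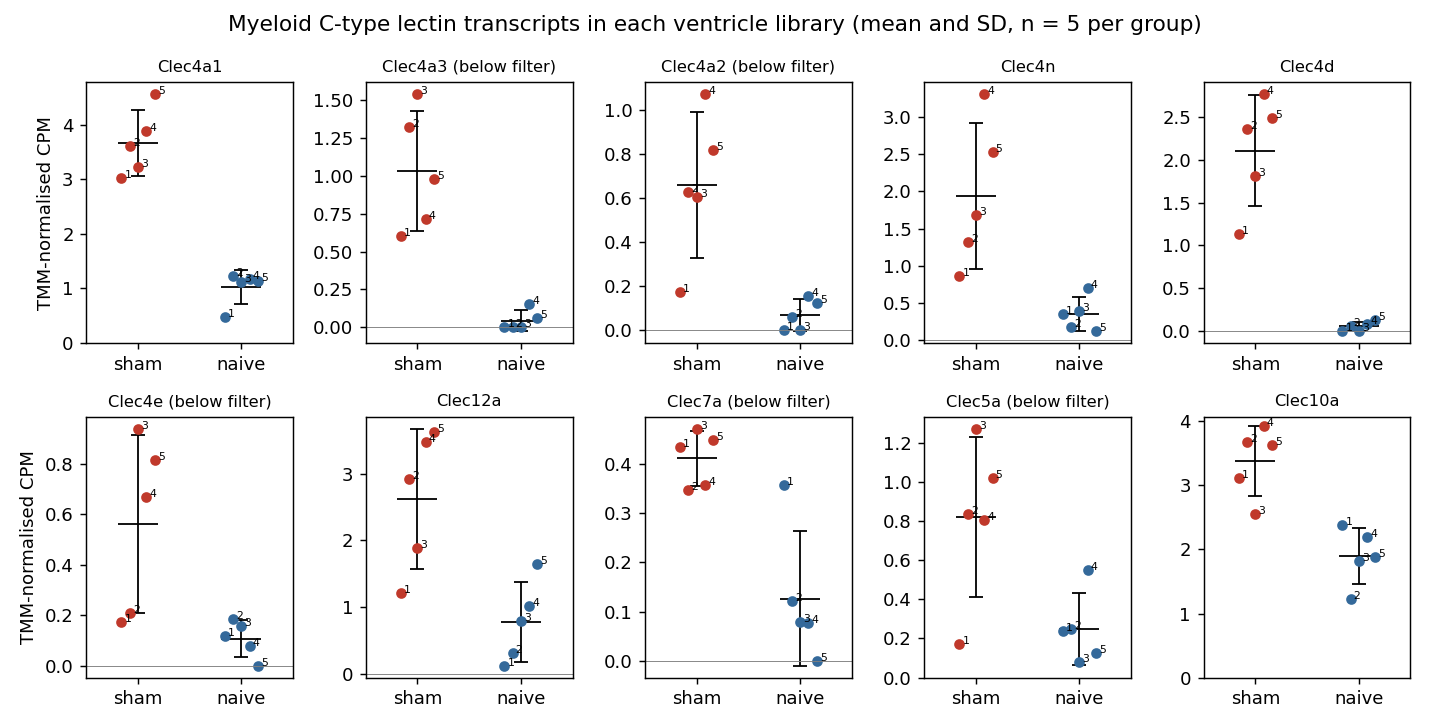
TMM-normalised CPM of each member in every library (points, numbered by library, with linear axes of their own), sham left and naive right, with the mean and SD of 5 libraries as bars; panels marked as below the filter were not tested. Sham 1 is the lowest sham library in 8 of the 10 panels, and the groups overlap in Clec4e, Clec5a, Clec7a and Clec12a.

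Among the receptors that signal through the Fc receptor gamma chain, Clec4d had the widest ratio between the groups. Clec4d (ENSMUSG00000030144, chromosome 6, 123262111 to 123275265 on the plus strand of GRCm38), also called MCL or Dectin-3, is a partner of Mincle in sensing mycobacterial glycolipids. It had 13, 34, 27, 62 and 61 counts in sham libraries 1 to 5 and 0, 1, 0, 1 and 2 counts in naive libraries 1 to 5. It was thus at or under the floor in each naive library and well over it in each sham library. The level was 2.11 ± 0.651 CPM in sham and 0.0532 ± 0.0541 CPM in naive (SD, n = 5). The ratio of summed counts was 37.0 with an interval of 14.2 to 137, and the fitted log2 fold change was 4.98 ± 0.48 (SE). With 4 naive counts in all, the size of this ratio is poorly fixed, and the fitted value was 4.70 without naive 3 and 5.49 without naive 5.

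Clec4e, or Mincle, which binds the mycobacterial cord factor and products of dying cells, lies beside Clec4d on the opposite strand (123281789 to 123289870). It had 2, 3, 14, 15 and 20 counts in sham libraries 1 to 5 and 1, 3, 2, 1 and 0 counts in naive libraries 1 to 5. Sham 3, 4 and 5 stood above all naive libraries, whereas sham 1 and 2 were at or under the floor of 3 counts like the naive libraries. The ratio was 5.79 with an interval of 2.63 to 15.1.

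Clec4n, or Dectin-2, binds fungal mannans (ENSMUSG00000023349, chromosome 6, 123229843 to 123247021, plus strand). It had 0.866, 1.32, 1.68, 3.30 and 2.53 CPM in sham libraries 1 to 5 and 0.357, 0.185, 0.395, 0.706 and 0.126 CPM in naive libraries 1 to 5. The lowest sham library stood just above the highest naive library, naive 4. The fitted log2 fold change was 2.54 ± 0.45 (SE), and the ratio of summed counts 6.48 (4.16 to 10.6).

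The remaining activating receptors, Clec7a and Clec5a, were below the filter. Clec7a, or Dectin-1, the receptor for fungal beta-glucan, carries the shortened ITAM in its own tail. It is classed as a polymorphic pseudogene in both the deposited table and GENCODE M21. It had 5, 5, 7, 8 and 11 counts in sham libraries 1 to 5 and 3, 2, 1, 1 and 0 counts in naive libraries 1 to 5. It was at 0.411 ± 0.0555 CPM in sham and 0.127 ± 0.136 CPM in naive libraries (SD, n = 5), and naive 1 at 0.357 CPM lay within the sham range of 0.347 to 0.470 CPM. Its ratio was 3.86 (1.69 to 10.3). Clec5a, or MDL-1, pairs with DAP12 and DAP10. It stood at 0.173 to 1.27 CPM in sham libraries and 0.0790 to 0.549 CPM in naive libraries, with a ratio of 3.57 (2.06 to 6.55). Sham 1, with 2 counts, lay inside the naive range, and the other 4 sham libraries lay above it.

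Of the inhibitory receptors, Clec12a (ENSMUSG00000053063, chromosome 6, 129342691 to 129365303, plus strand), also called MICL, holds an ITIM and recognises uric acid crystals. It had 1.21, 2.92, 1.88, 3.48 and 3.63 CPM in sham libraries 1 to 5 and 0.119, 0.308, 0.790, 1.02 and 1.64 CPM in naive libraries 1 to 5. Naive 5 lay above sham 1, so the groups overlapped, and the naive libraries held between 1 and 26 counts. The fitted log2 fold change was 1.71 ± 0.43 (SE), 2.20 without naive 5 and 1.43 with sham 4 and naive 1 left out together. Clec4a2, the mouse DCIR with an ITIM, had 2, 9, 9, 24 and 20 counts in sham libraries 1 to 5 and 0, 1, 0, 2 and 2 counts in naive libraries 1 to 5. Every naive library was under the floor, as was sham 1. The ratio was 9.61 (3.91 to 30.6). Of the 50-base stretches in its annotated transcripts, 6.83% occur in transcripts of other genes, mainly its neighbour Clec4a4, so some of its reads could be split or lost.

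Clec4a1 and Clec4a3 are closely related receptors of the same DCIR family. Clec4a1 (ENSMUSG00000049037, chromosome 6, 122921848 to 122934619, plus strand) had 3.03, 3.61, 3.22, 3.88 and 4.57 CPM in sham libraries 1 to 5 and 0.476, 1.23, 1.11, 1.18 and 1.14 CPM in naive libraries 1 to 5. Naive 1 stood apart from the other naive libraries, and the groups did not overlap. The fitted log2 fold change was 1.80 ± 0.23 (SE), or 1.66 without naive 1. Clec4a3 had 7, 19, 23, 16 and 24 counts in sham libraries 1 to 5 and 0, 0, 0, 2 and 1 counts in naive libraries 1 to 5. Its ratio was 22.3 with an interval of 7.38 to 110, the second highest of the members, on 3 naive counts in all.

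Clec10a, or MGL1, is an endocytic receptor for galactose and N-acetylgalactosamine on macrophages and dendritic cells (ENSMUSG00000000318, chromosome 11, 70156197 to 70170834, plus strand). It had 3.12, 3.68, 2.55, 3.93 and 3.63 CPM in sham libraries 1 to 5 and 2.38, 1.23, 1.82, 2.19 and 1.89 CPM in naive libraries 1 to 5. The groups did not overlap, but sham 3 and naive 1 stood close together. Its log2 fold change of 0.86 ± 0.21 (SE) and its ratio of 1.89 (1.52 to 2.35) were the smallest of the members. Of its 50-base transcript stretches 9.02% are shared with other genes, mainly the paralog Mgl2, which makes its count uncertain. Mgl2 itself was at 5.6 ± 0.986 CPM in sham and 6.32 ± 1.74 CPM in naive libraries and did not pass the test (log2 fold change -0.17 ± 0.19, adjusted p = 0.514). In the other 8 members at most 0.686% of such stretches were shared, and no member shared annotated exon bases with another gene on either strand.

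The make-up of the summed counts was not the same in both groups. Clec10a took 20.4% ± 4.99 of the members' counts in sham and 41.1% ± 10.3 in naive libraries (SD, n = 5), with ranges of 16% to 28.6% in sham and 33.9% to 58.8% in naive that did not overlap. Clec4d took 12.1% ± 1.38 in sham and 1.07% ± 1.06 in naive libraries. The shares of Clec4a1, at 21.9% ± 3.53 in sham and 22.3% ± 8.13 in naive, and of Clec12a, at 14.8% ± 3.05 in sham and 15.4% ± 10.8 in naive, differed by less than the spread between libraries.

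To compare levels between genes, mean CPM was divided by the length of all annotated exons of a gene, which need not be the length of the form expressed here. In sham libraries Clec4a1 led at 2.35 ± 0.388 CPM per kb, followed by Clec4n at 1.37 ± 0.687, Clec4d at 1.32 ± 0.407 and Clec10a at 1.17 ± 0.190, and these last 3 did not differ beyond their spread. Clec4a3 at 0.776 ± 0.298 and Clec12a at 0.474 ± 0.190 also overlapped in spread. Clec4a2 (0.225 ± 0.113), Clec5a (0.214 ± 0.106), Clec7a (0.156 ± 0.0210) and Clec4e (0.113 ± 0.0709 CPM per kb) formed the lower end without clear steps. In naive libraries Clec10a (0.655 ± 0.151) and Clec4a1 (0.655 ± 0.199 CPM per kb) shared the first place. Clec4n followed at 0.249 ± 0.160 and Clec12a at 0.140 ± 0.109, and the remaining 6 lay at 0.0218 to 0.0646 CPM per kb. Clec4d thus had the third place in sham libraries but one of the lower places in naive libraries.

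Most members are neighbours. Of the 10, 9 lie on chromosome 6 and Clec10a on chromosome 11. In a stretch of 368 kb on chromosome 6 (122921848 to 123289870) lie 6 members, in the order Clec4a1, Clec4a3, Clec4a2, Clec4n, Clec4d and Clec4e. The other lectin genes of this stretch were near 0 in both groups. Clec4a4 had 0 counts over the sham and 1 over the naive libraries, as did Clec4b2, and Clec4b1 had 10 over the sham and 5 over the naive libraries. A second stretch of 130 kb (129342691 to 129472779) holds Clec12a at one end and Clec7a at the other. Of the genes between them, Clec9a, a receptor of dendritic cells for exposed actin filaments, was at 1.49 ± 0.626 CPM in sham and 1.57 ± 0.912 CPM in naive libraries (log2 fold change -0.13 ± 0.38, adjusted p = 0.822). Clec1a was at 4.38 ± 0.737 CPM in sham and 3.76 ± 1.41 CPM in naive libraries (log2 fold change 0.19 ± 0.23, adjusted p = 0.552). Neither passed the test. Clec9a shares 5.59% of its annotated exon bases with Clec1b on the same strand.

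**Figure D2:**
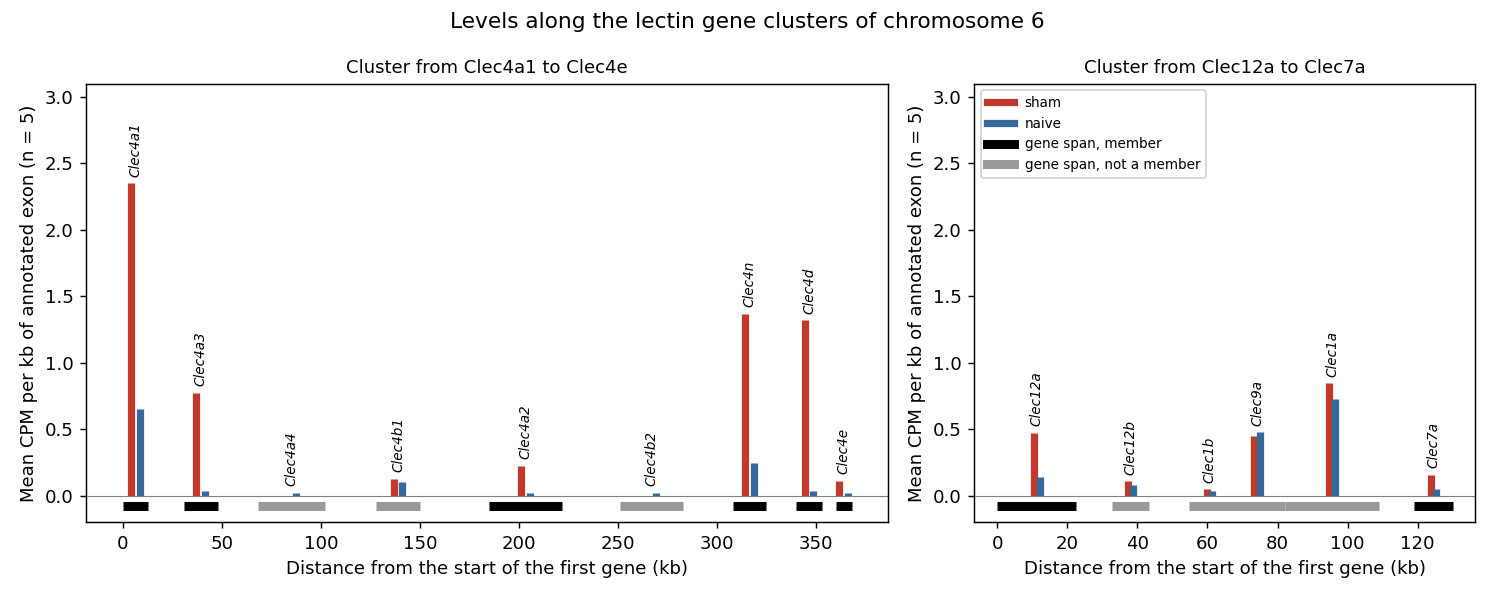
Mean CPM per kb of annotated exon (vertical axis; red sham, blue naive, n = 5 each) at the place of each C-type lectin gene along both stretches of chromosome 6, as distance in kb from the start of the first gene; black and grey bars are the spans of members and of other genes. Clec4a4, Clec4b1 and Clec4b2 are near 0 in both groups, and Clec9a is at 0.452 in sham and 0.477 CPM per kb in naive.

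The bases around the annotated transcription starts were searched for short motifs of myeloid regulators, since these members stand higher together. RefSeq windows of GRCm38.p6, from 250 bases before to 50 after a start, were at hand for 8 members in 10 windows; Clec4n and Clec10a had none. The core of the binding motif of PU.1, GAGGAA read on either strand, occurred in at least 1 window of 7 of these 8 members (8 of 10 windows), and in 28.3% of all 32851 windows. The C/EBP motif TTGCNNAA occurred in 2 members and in 10.8% of all windows, and the AP-1 motif TGANTCA in 2 members and in 7.81%. The windows of Clec7a, from 129472730 and from 129472736, overlap and hold the same PU.1 core, which is thus counted in both. The counts of members are per gene and the percentages per window, and the share of all genes with a match was not computed. No match of one motif overlapped another's. These matches describe letters in these windows and say nothing of binding. The windows of the tested members that had one are printed 5′ to 3′ on the strand of the gene, with all matches of these motifs in capitals. They are chr6:123261857-123262156 (plus strand) for Clec4d, chr6:122921598-122921897 (plus) for Clec4a1 and chr6:129349994-129350293 (plus) for Clec12a. The Clec12a window lies inside the gene's longer span in GENCODE M21.
Clec4d: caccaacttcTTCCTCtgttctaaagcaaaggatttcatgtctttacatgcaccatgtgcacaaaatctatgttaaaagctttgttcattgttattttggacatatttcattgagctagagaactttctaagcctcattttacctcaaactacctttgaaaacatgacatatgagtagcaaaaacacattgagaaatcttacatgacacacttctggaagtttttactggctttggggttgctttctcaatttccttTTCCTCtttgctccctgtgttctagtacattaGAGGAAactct
Clec4a1: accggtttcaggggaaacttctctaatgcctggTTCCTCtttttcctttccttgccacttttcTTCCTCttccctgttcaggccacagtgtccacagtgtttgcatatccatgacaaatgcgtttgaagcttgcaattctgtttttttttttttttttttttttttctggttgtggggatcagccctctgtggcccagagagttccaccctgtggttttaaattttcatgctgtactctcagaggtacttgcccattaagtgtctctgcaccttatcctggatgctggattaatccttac
Clec12a: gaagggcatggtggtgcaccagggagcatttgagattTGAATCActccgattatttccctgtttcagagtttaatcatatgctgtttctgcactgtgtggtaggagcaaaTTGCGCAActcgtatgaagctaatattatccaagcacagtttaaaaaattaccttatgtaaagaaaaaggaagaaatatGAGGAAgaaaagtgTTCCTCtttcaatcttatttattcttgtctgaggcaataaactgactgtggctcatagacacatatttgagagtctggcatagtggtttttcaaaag
Counted from the start, with minus before it, the first bases of the PU.1 cores lie at -240, 7 and 39 in Clec4d, at -217 and -187 in Clec4a1 and at -61 and -47 in Clec12a. The Clec12a window also held a C/EBP match at -140 and an AP-1 match at -213. PU.1 itself (Spi1), the factor that defines the myeloid line, was at 59.7 ± 7.2 CPM in sham and 16.3 ± 2.44 CPM in naive libraries (log2 fold change 1.88 ± 0.12, adjusted p = 1.28e-08). Of the 15 tested genes of a list of 16 myeloid transcription factors, 10 rose, 1 fell and 4 did not pass, with a median log2 fold change of 0.79 against -0.05 over all tested genes. Runx1, of blood cell development, rose by 1.84 ± 0.16 (log2, SE) and Irf5 by 1.70 ± 0.13. Irf8, of monocyte and dendritic cell lineages, rose by 1.25 ± 0.11. Among C/EBP factors, Cebpa rose by 1.37 ± 0.13 (adjusted p = 6.36e-07), whereas Cebpb (0.32 ± 0.14, adjusted p = 0.0901) did not pass. The 1 lower gene was the immediate early factor Nr4a1, at -1.58 ± 0.37.

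The adaptors that carry the receptors' signals were higher in sham libraries. Fcer1g, the partner of Clec4d, Clec4e and Clec4n, was at 46.8 ± 8.95 CPM in sham and 10.1 ± 2.35 CPM in naive libraries, a log2 fold change of 2.24 ± 0.16 (adjusted p = 5.85e-08). Tyrobp was at 38.4 ± 7.56 CPM in sham and 9.21 ± 1.05 CPM in naive libraries (2.06 ± 0.14, adjusted p = 2.16e-08). DAP10 (Hcst) was at 1.33 ± 0.452 CPM in sham and 0.42 ± 0.137 CPM in naive libraries (1.71 ± 0.33, adjusted p = 0.00101). Of the 30 genes listed for ITAM adaptors, kinases and downstream steps, all tested, 17 rose, 1 fell and 12 did not pass, with a median of 0.50. The Src family kinase Fgr rose by 3.28 ± 0.29. Syk was at 60.8 ± 3.18 CPM in sham and 42.1 ± 4.73 CPM in naive libraries (0.53 ± 0.09, adjusted p = 0.000259), and Card9 at 8.44 ± 1.27 CPM in sham and 4.24 ± 0.882 CPM in naive libraries (1.01 ± 0.16, adjusted p = 0.000201). Of the CARD9 complex, Bcl10 (0.24 ± 0.10, adjusted p = 0.0895) and Malt1 (-0.19 ± 0.17, adjusted p = 0.429) did not pass. Nor did the NF-kB subunits Nfkb1 (0.15 ± 0.08, adjusted p = 0.15), Rela (0.15 ± 0.08, adjusted p = 0.181), Relb (0.20 ± 0.11, adjusted p = 0.188) and Rel (-0.19 ± 0.16, adjusted p = 0.406). The subunit Nfkb2 was just past the threshold as higher (0.25 ± 0.09, adjusted p = 0.0415), with groups that overlapped. The 1 lower gene was the kinase Map3k7 (-0.34 ± 0.09, adjusted p = 0.00803), a call lost when scaling by library size alone (adjusted p = 0.625).

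On the inhibitory side, 7 of 11 listed phosphatases and docking proteins rose, 2 fell and 2 did not pass (median 1.06). SHP-1 (Ptpn6), which ITIMs recruit, was at 25 ± 2.73 CPM in sham and 8.09 ± 1.18 CPM in naive libraries (1.63 ± 0.12, adjusted p = 6.43e-08). The lipid phosphatase SHIP-1 (Inpp5d) rose by 1.23 ± 0.10, and the docking proteins Dok3 and Dok1 by 1.84 ± 0.11 and 1.84 ± 0.14. SHP-2 (Ptpn11), present in most cells, was lower, at 255 ± 27.7 CPM in sham and 335 ± 15.3 CPM in naive libraries (-0.39 ± 0.09, adjusted p = 0.00276), as was Inppl1 (-0.27 ± 0.10, adjusted p = 0.0373). The call of Inppl1 was lost without sham 2, 3, 4 or 5 and without naive 1, 2 or 3, each left out alone (adjusted p 0.0675 to 0.104), and both calls were lost when scaling by library size alone.

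A list of 28 genes, fixed by name, was taken for the outputs of CARD9 signalling. Whether these genes respond to CARD9 was not tested. Of the 28, 14 were too low to be tested, among them Il1b, Il6, Il10, Il12b and Il23a. Of the 14 tested, 9 rose, 0 fell and 5 did not pass (median 1.15). The chemokines Ccl3, Cxcl1 and Ccl2 rose by 2.58 ± 0.35, 2.50 ± 0.32 and 2.43 ± 0.22, and the feedback inhibitor of cytokine signalling Socs1 by 1.01 ± 0.16. Tnf was at 4.09 ± 4.1 CPM in sham and 1.8 ± 1.53 CPM in naive libraries and did not pass (adjusted p = 0.198). Il10 had 14 counts over the sham and 0 over the naive libraries.

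Most other tested genes with the Clec name did not pass the test. Of 21 such genes outside the members, 8 were tested, of which 2 rose, 0 fell and 6 did not pass, with a median log2 fold change of 0.03. The members were selected on these same counts and these genes are the remainder, so nothing is read from the contrast with the members. Clec11a, a secreted growth factor for blood and bone progenitors, was at 7.8 ± 1.71 CPM in sham and 2.06 ± 0.949 CPM in naive libraries (1.99 ± 0.24, adjusted p = 1.13e-05). Clec2d, a ligand of natural killer cell receptors, was at 2.99 ± 0.804 CPM in sham and 1.78 ± 0.372 CPM in naive libraries (0.73 ± 0.23, adjusted p = 0.0217); without sham 4 it did not pass (adjusted p = 0.0561). The endothelial Clec14a was at 15.9 ± 1.06 CPM in sham and 15.7 ± 1.07 CPM in naive libraries (0.02 ± 0.09, adjusted p = 0.905), and the plasma protein tetranectin, Clec3b, at 66.7 ± 9.89 CPM in sham and 69.7 ± 14.5 CPM in naive libraries (-0.06 ± 0.13, adjusted p = 0.767). The signs of Clec14a, Clec3b and Clec9a changed with the setting. Among 33 further receptors with a lectin domain, 14 were tested, of which 7 rose, 0 fell and 7 did not pass (median 0.68). The selectin Selp rose by 3.12 ± 0.31, Cd72 of B cells and macrophages by 2.74 ± 0.24, the mannose receptor Mrc1 by 1.16 ± 0.11 and the collagen receptor Mrc2 of fibroblasts by 1.29 ± 0.10. Cd209a, a lectin of dendritic cells, was too low to be tested, with 15 counts over the sham and 11 over the naive libraries.

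**Figure D3:**
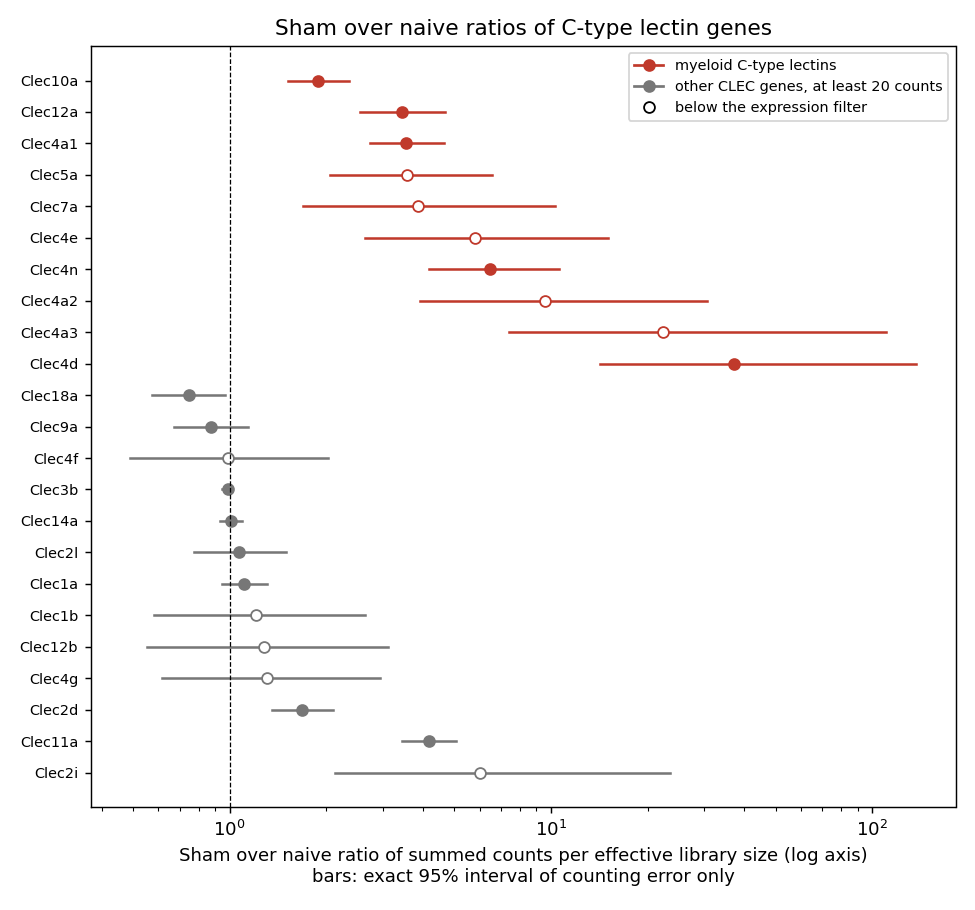
Ratio of summed counts per effective library size, sham over naive, on a log axis, for the 10 members (red) and the other Clec genes with at least 20 counts (grey); bars are exact 95% intervals of counting error only and open points are genes below the filter. The members run from 1.89 in Clec10a to 37.0 in Clec4d, and Clec2d, Clec11a and Clec2i lie to the right of the other grey points. The red genes were selected on these same counts, so nothing is read from the contrast of red and grey.

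General leukocyte and macrophage genes were also higher in sham libraries. Of 52 leukocyte markers in 6 lists, 25 were tested, of which 18 rose, 2 fell and 5 did not pass, with a median log2 fold change of 1.66. The 13 macrophage and monocyte markers summed to 805 to 1010 CPM in sham and 281 to 353 CPM in naive libraries. Most of this was C1qa (325 ± 21.9 CPM in sham and 103 ± 16.7 in naive), Lyz2 (227 ± 52.7 and 58.1 ± 14.6) and Csf1r (170 ± 9.04 and 79.6 ± 4.93). Ratios to the sum therefore rest mainly on these genes. Of the 13 markers, 10 of the 12 tested rose. Among them, Itgam rose by 2.82 ± 0.19, C1qa by 1.66 ± 0.11 and Cd68 by 1.81 ± 0.11, while Mertk (0.34 ± 0.15, adjusted p = 0.0883) and Lyve1 (0.03 ± 0.22, adjusted p = 0.932) did not pass. Per 100 CPM of these markers, the members' sum was 1.36, 1.84, 1.77, 2.08 and 2.14 CPM in sham libraries 1 to 5 and 1.30, 1.29, 1.49, 1.75 and 1.70 CPM in naive libraries 1 to 5. Relative to macrophage markers the groups overlapped, although sham 2 to 5 stood above all naive libraries, and relative to the leukocyte phosphatase Ptprc they overlapped as well, at 1.27 to 1.64 CPM of members per CPM of Ptprc in sham and 0.922 to 2.12 in naive libraries. The fitted log2 fold changes of the 12 tested macrophage and monocyte markers ran from 0.03 in Lyve1 to 3.26 ± 0.41 in Ccr2. Those of Clec4a1 (1.80), Clec12a (1.71), Clec4n (2.54) and Clec10a (0.86) lay within this range, and that of Clec4d (4.98) above it. Ptprc was at 1.75 ± 0.21. Differences in fold change between genes were not tested.

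**Figure D4:**
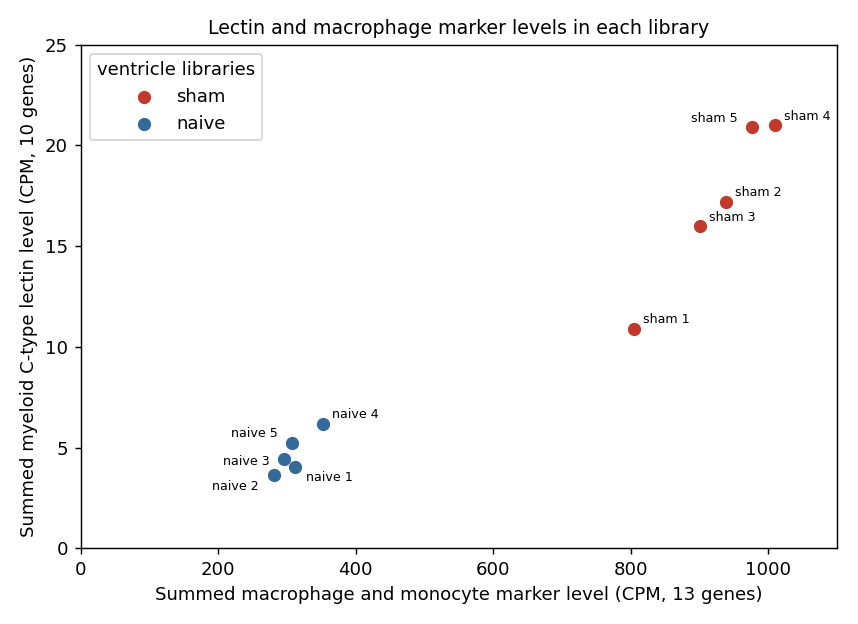
Summed CPM of the 10 members (vertical axis) against summed CPM of 13 macrophage and monocyte markers (horizontal axis), 1 point for each library, sham red and naive blue, on linear axes from 0. The sham libraries lie at 805 to 1010 CPM of markers and the naive libraries at 281 to 353 CPM, and sham 1 is lowest in its group on both axes. C1qa, Lyz2 and Csf1r hold most of the marker sum.

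Markers of other myeloid cells were sparse. Neutrophil markers summed to 14.7 to 33.7 CPM in sham and 2.05 to 5.05 CPM in naive libraries; 2 of 8 were tested and both were higher, Csf3r (2.77 ± 0.24) and S100a9 (2.07 ± 0.73, adjusted p = 0.0424). The groups overlapped in S100a9, and its call was lost under DESeq2 and without sham 2, 3 or 5 or naive 1, 2, 3 or 4, each left out alone (adjusted p 0.068 to 0.101). Among the untested markers, Cxcr2 had 81 counts over the sham and 9 over the naive libraries, and S100a8 44 and 1. Mpo had 16 and 8, Ly6g 9 and 2, Retnlg 9 and 4, and Elane 3 over each. Of 7 dendritic cell markers 1 rose (Itgax, 1.74 ± 0.27), 1 fell (Zbtb46, -0.50 ± 0.12) and 5 were not tested. Zbtb46 held most of this list's level, at 18.5 ± 1.57 CPM in sham and 26.2 ± 4.96 CPM in naive libraries. Whether its RNA came from dendritic cells was not tested. Among the untested markers, Flt3 had 99 counts over the sham and 20 over the naive libraries, and Ccr7 67 and 21. The rest had fewer counts. Mast cell and eosinophil markers summed to 6.93 to 10.3 CPM in sham and 7.75 to 11.2 CPM in naive libraries. Most of this was Kit, at 5.8 ± 1.12 CPM in sham and 5.9 ± 1.63 CPM in naive. The mast cell gene Tpsb2 fell (-0.76 ± 0.25, adjusted p = 0.0296), a call lost without the filter (adjusted p = 0.0784). The eosinophil markers were not tested: Siglecf had 52 counts over the sham and 3 over the naive libraries, Epx 6 and 4, and Prg2 6 and 0. Markers of B, T and NK cells summed to 5.48 to 6.24 CPM in sham and 2.83 to 5.18 CPM in naive libraries. Fibroblast markers summed to 6360 to 11600 CPM in sham and 657 to 936 CPM in naive libraries, and 4 of 5 rose, with a median log2 fold change of 0.68. Most of that sum was Col1a1, at 8600 ± 2030 CPM in sham and 601 ± 156 CPM in naive libraries, while Dcn (0.31 ± 0.24, adjusted p = 0.372) did not pass. The part of these cells in the members' difference was not tested. Ventricular muscle genes, the markers of the tissue label, summed to 56300 to 65400 CPM in sham and 75100 to 78900 CPM in naive libraries. Of the atrial markers, Sln had 1 count over the sham and 0 over the naive libraries. Myl7 had 101 over the sham and 65 over the naive libraries, and Myl4 237 and 120. The sham total of Myl7 was uneven, with a median of 0.346 CPM and a range of 0.134 to 3.3 CPM. In naive libraries the median of Myl7 was 1.05 CPM and the range 0.568 to 1.31 CPM. Nppa was at 82.3 ± 34.5 CPM in sham and 45.2 ± 6.1 CPM in naive libraries (0.87 ± 0.27, adjusted p = 0.0309), with groups that overlapped.

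The variation among libraries was also compared between the tested members. With the group means removed, 9 of the 10 pairs of tested members had a positive Pearson's r over the 10 libraries, with a median of 0.274 and a range of -0.287 to 0.750. Clec12a went closest with Clec4a1 (0.75) and Clec4d (0.74), and Clec10a with Clec4a1 had the 1 negative value. The genes most like the mean standardised profile of the tested members over all 10 libraries were Cmtm3 (r = 0.992), the late endosome GTPase Rab7b (0.990), lysozyme (Lyz2, 0.989), the Fc receptor-like Fcrls (0.986) and the lysosomal protease cathepsin B (Ctsb, 0.985), among 11653 genes whose mean log2 CPM was 1 or more. With group means removed they were Akr1b3 (0.984), Plin2 (0.976), Atg4b (0.972), Pdzd11 (0.964) and Tmsb4x (0.960). These values are descriptions over points that share a group or a library and its depth.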

How the data were processed

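Polyadenylated RNA was sequenced in single-end, non-strand-specific libraries, per the labels' protocols. The authors deposited 1 table of raw counts per gene from HTSeq on GRCm38, per the file headers. The submitters' processing notes also name Bowtie2, TopHat2 2.1.1, DESeq and edgeR. Annotation release, counting mode and read length: not given in the sources used here. From 41264 rows, 574 that repeated an identifier were collapsed, which left 40690 genes, and 0 columns of per-sample values went unused.

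Counts were filtered with filterByExpr (minimum count 10, total 15) and TMM-normalised, and sham was tested against naive with edgeR 4.0.16 (R 4.3.3), quasi-likelihood F test with robust dispersion, no covariates, Benjamini-Hochberg over 13622 genes at 0.05. Alternatives used DESeq2 1.42.0, limma 3.58.1 voom, other scalings and filters, a replicate block and left-out libraries. Positions and exon lengths come from GENCODE M21 on GRCm38, and promoters from RefSeq GRCm38.p6.

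The members and gene lists were chosen with earlier results of these data known. Named beside the members were up to 6 genes of smallest p per pathway list, up to 3 per marker list, defining markers at or near 0, fixed names such as Fcer1g and Clec14a, and the 5 genes most like the members by each of 2 measures. Bcl10, Malt1, Map3k7, Nfkb1, Rela, Rel, Ptpn11, Inppl1, Cebpb, Nr4a1, Tnf, Il10, Mertk, Lyve1, Itgam and Mgl2 were named after their values were seen. So were Nfkb2, Relb, Ccr2, Cxcr2, S100a8, Mpo, Retnlg, Myl4, Myl7, Kit, Siglecf, Epx, Prg2, Flt3 and Ccr7.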

Additional observations from a re-analysis of the deposited data

Results flagged for a closer look

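The highest or lowest library of a group stood far from the other 4 in 16 of 212 checks, over 106 named genes in 2 groups. Chance flags about 1 check in 20. Their causes were not tested. Clec4a1 was at 0.476 CPM in naive 1, against 1.11 to 1.23 CPM in the other naive libraries. Clec11a was at 3.69 CPM in naive 1, against 1.33 to 1.98 CPM in the other naive libraries. Mrc2 was at 101 CPM in naive 1, against 71.5 to 77.2 CPM in the other naive libraries. Socs1 was at 13.9 CPM in sham 3, against 8.89 to 10.2 CPM in the other sham libraries. Irf5 was at 7.01 CPM in naive 5, against 10.3 to 10.6 CPM in the other naive libraries. Csf3r was at 27.3 CPM in sham 3, against 13.5 to 16.4 CPM in the other sham libraries. S100a9 was at 1.26 CPM in naive 5, against 0 to 0.123 CPM in the other naive libraries. Zbtb46 was at 21.2 CPM in sham 5, against 17.2 to 18.3 CPM in the other sham libraries. Clec4b1 was at 0.316 CPM in naive 3, against 0 to 0.0784 CPM in the other naive libraries, which is 4 counts against 0 or 1. Clec4g was at 0.357 CPM in naive 1, against 0.123 to 0.189 CPM in the other naive libraries, which is 3 counts against 2 or 3, so that the gap comes from the smaller total of naive 1 and all 5 libraries lie at or under the floor. Clec12b was at 0.442 CPM in naive 5, against 0 to 0.123 CPM in the other naive libraries. Nfkb1 was at 74.1 CPM in sham 4, against 81.1 to 82.7 CPM in the other sham libraries. Ptpn11 was at 207 CPM in sham 4, against 257 to 275 CPM in the other sham libraries. Nr4a1 was at 33 CPM in sham 2, against 26.9 to 28.6 CPM in the other sham libraries. Tnf was at 11.4 CPM in sham 4, against 1.48 to 2.81 CPM in the other sham libraries. Tnf was at 4.47 CPM in naive 4, against 0.833 to 1.64 CPM in the other naive libraries.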

How the results depend on the processing

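The members were chosen on these counts, so their calls under the alternatives are no sign of stability. Over the alternatives their fitted log2 fold changes ran from 1.66 to 2.06 for Clec4a1, 4.70 to 5.49 for Clec4d, 2.29 to 2.97 for Clec4n, 0.72 to 1.12 for Clec10a and 1.43 to 2.20 for Clec12a. Without the filter on low counts 9 members were past the threshold, where 8.64% of 30305 genes were higher, as were 14 CARD9 outputs and 11 other lectin-domain receptors, 10 of them higher and 1 lower (Cd209f, -3.46, adjusted p = 0.02, with 1 count over the sham and 14 over the naive libraries). Scaling by library size alone shifted the median of all genes by 0.26 (log2) and gave 4473 higher and 283 lower genes, and limma voom gave 3269 lower genes. Other Clec genes numbered 1 past the threshold with sham 4 and naive 1 left out. Both were doubted in an earlier analysis of these data, but whether either library was faulty was not tested. Leaving out 1 library at a time gave 2132 to 2461 higher and 1465 to 2249 lower genes, 5 to 7 members and 1 to 2 other Clec genes (1 without sham 4). Signs of small values turned: under library size alone Clec3b was at 0.21, Clec9a at 0.11, Cdh5 at 0.05, Malt1 at 0.08, Rel at 0.07 and Mgl2 at 0.09; under voom Clec14a was at -0.02 and Clec2l at -0.30; with sham 4 and naive 1 left out Clec14a was at -0.01, Clec3b at 0.02, Malt1 at 0.02 and Lyve1 at -0.12. Over the single left-out libraries Clec14a ran from -0.02 to 0.06, Clec3b from -0.12 to 0.06, Clec9a from -0.35 to 0.25, Clec2l from -0.12 to 0.24 and Lyve1 from -0.08 to 0.24. The endothelial gene Cdh5 was lower in the main fit (-0.21 ± 0.08, adjusted p = 0.0434), and this call was lost under library size alone (adjusted p = 0.687). Under library size alone the lower calls of Ptpn11 (-0.13, adjusted p = 0.382), Map3k7 (-0.08, adjusted p = 0.625), Zbtb46 (-0.23, adjusted p = 0.197) and Inppl1 (adjusted p = 0.983) were lost too. The cause was not tested. Replicate numbers were not taken as pairs, since the labels do not tie them and the deviations of same-numbered libraries correlated at 0.227, 0.035, 0.00801, 0.293 and 0.292, not all over 0.1. The data hold a hint of pairing: numbers 1, 4 and 5 were each other's best match in both groups, numbers 2 and 3 were not, and PC2 was highest in number 1 in both groups (16.4 in sham, 38.7 in naive). Between same-numbered libraries, members per 100 CPM of macrophage markers were higher in sham in 5 of 5. Members per CPM of Ptprc were lower in sham in numbers 1 and 3 and higher in numbers 2, 4 and 5. The numbers were not taken as pairs and the members were chosen on these counts, so nothing is read from either comparison. With the replicate block 2592 genes were higher, 2801 lower, and 5 members, 2 other Clec genes, 7 lectin-domain receptors, 18 ITAM genes, 9 phosphatases, 11 CARD9 outputs, 12 transcription factors and 20 leukocyte markers passed. Depth limits Clec4a2, Clec4a3, Clec4e, Clec5a and Clec7a, whose naive counts lie at or near the floor of 3 counts.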
